A study of Mus musculus with 5 samples.

Results

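T follicular helper (Tfh) genes are described here as a set of 8 genes, *Bcl6*, *Cxcr5*, *Icos*, *Il21*, *Il4*, *Tox2*, *Ascl2* and *Pou2af1*, which were chosen by name out of 55487 genes counted in each library. All 8 were found by symbol in the annotation, and 7 of them had enough reads to be tested. RNA was sequenced from CD4 single positive (SP) thymocytes of 3 wild type (WT) mice and 2 mice that carried Tet2-/- and Tet3flx/flx with CD4cre (*Tet2/3* DKO), with 1 library per mouse. The strain of both groups is given as C57BL/6J, and the mice were 21 to 30 days old. *Tet2* was deleted in the germ line, whereas *Tet3* was deleted by a Cre recombinase under the *Cd4* promoter, which acts from the double positive (DP) stage of thymocytes onwards. The sort took CD24low TCRβ+ cells with CD4 and without CD8, and left out iNKT cells, which bind the αGalCer-loaded CD1d tetramer.

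Tfh cells are CD4 T cells that move into B cell follicles and help B cells to form germinal centers. BCL6 is their lineage-defining repressor, ASCL2 and TOX2 are transcription factors that act with it, CXCR5 guides the cells to the follicle, ICOS is the costimulatory receptor that sustains them, and they help B cells with IL-21 and IL-4. POU2AF1 (OCA-B) is a coactivator of octamer factors that is best known from B cells and is also used by Tfh cells. In the thymus conventional CD4 SP cells are naive, so that the program as a whole is a feature of antigen-experienced cells of the periphery, although *Icos* and *Il4* are also used by unconventional T cells.

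Among the 8 genes *Icos* and *Il4* were called higher in the *Tet2/3* DKO libraries, by 2.12-fold and 5.03-fold in mean CPM (counts scaled to library size after TMM normalization), and none fell. *Tox2* was 10.2-fold higher in mean CPM and lay just outside the threshold. *Cxcr5*, *Il21* and *Pou2af1* were between 4.98 and 30.9 times as high in *Tet2/3* DKO replicate 2 as in *Tet2/3* DKO replicate 1, and *Ascl2* had 18 counts in replicate 2 and at most 2 elsewhere. *Bcl6*, the gene of the lineage-defining factor, stayed at a few CPM in every library.

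The libraries had between 17607089 and 27267031 reads on genes, the smallest being *Tet2/3* DKO replicate 2. *Tet3* was at 47.3 ± 4.57 CPM in WT (SD, n = 3) and fell to 16.6 ± 4.83 in *Tet2/3* DKO libraries (SD, n = 2), while *Tet2* had 54.8 ± 2.72 and 75.1 ± 23.2 CPM, and counts over the whole gene do not test its deletion. The CD4 SP markers *Cd3d*, *Cd3e*, *Cd3g*, *Trac* and *Cd4* were at 389 CPM or more in every library. Of the 9 CD4 SP markers 3 fell and none rose, where 1.5% of all tested genes fell and 2.42% rose. *Cd4* went from 653 ± 91.7 to 411 ± 30.9 CPM, *Cd5* from 907 ± 29.4 to 374 ± 42.1 and *Zbtb7b*, the CD4 lineage factor ThPOK, from 43.8 ± 7.19 to 19.4 ± 0.408 (SD, n = 3 and 2, edgeR adjusted p of 0.0095, 8.57e-05 and 0.00225). The DP genes *Rag1*, *Rag2* and *Ptcra* had at most 3 counts. By its label WT replicate 1 is female and all others are male, and the study's methods give all as male. *Xist*, which is transcribed in females, had 744 counts in *Tet2/3* DKO replicate 1 and at most 2 in the other libraries, and the Y-linked gene *Ddx3y* had 1 count there and at least 1309 elsewhere, so that this library and WT replicate 1 went against their labels. The *Tet2/3* DKO libraries also differed from each other, and the 10 largest T cell receptor beta (TRB) clonotypes took up 33.2% of all TRB reads of *Tet2/3* DKO replicate 2 (95% Wilson interval 32.3% to 34.1%, counting error only), 8.33% (7.85% to 8.85%) in *Tet2/3* DKO replicate 1 and at most 0.511% (0.393% to 0.663%) in WT. The members are therefore given with and without each *Tet2/3* DKO library, and without *Tet2/3* DKO replicate 1 all libraries were of male RNA.

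The promoters of the members were read from RefSeq (GRCm38.p6), where 6 of the 8 genes had an entry and *Cxcr5* and *Icos* had none. Each window holds 250 bases before and 50 bases after a transcription start, and the start nearest to the annotated 5′ end of the gene was taken. TET proteins oxidize methylated cytosine, mostly at CpG sites, and so the CpG sites are set in capitals. Shown are *Il4* and *Tox2*, the members with the largest log2 fold changes among those higher in both *Tet2/3* DKO libraries, and *Il21* and *Pou2af1*, tested members with counts far apart between the *Tet2/3* DKO libraries. They lie at chr11:53618616-53618915 (*Il4*, minus strand), chr3:37232587-37232886 (*Il21*, minus strand), chr9:51213440-51213739 (*Pou2af1*, plus strand) and chr2:163202877-163203176 (*Tox2*, plus strand) of GRCm38, and are written 5′ to 3′ on the strand of the gene.
Il4: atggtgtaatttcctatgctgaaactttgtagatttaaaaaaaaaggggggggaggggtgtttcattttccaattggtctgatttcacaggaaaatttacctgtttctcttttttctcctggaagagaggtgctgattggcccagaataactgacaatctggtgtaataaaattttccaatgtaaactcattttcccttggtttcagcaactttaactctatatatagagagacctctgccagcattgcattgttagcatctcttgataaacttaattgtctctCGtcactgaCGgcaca
Il21: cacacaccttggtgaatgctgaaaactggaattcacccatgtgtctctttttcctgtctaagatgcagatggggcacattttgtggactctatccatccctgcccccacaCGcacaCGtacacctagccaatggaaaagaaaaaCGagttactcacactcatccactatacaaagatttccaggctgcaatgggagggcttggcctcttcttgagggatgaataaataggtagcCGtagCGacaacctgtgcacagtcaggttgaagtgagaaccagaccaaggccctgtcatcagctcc
Pou2af1: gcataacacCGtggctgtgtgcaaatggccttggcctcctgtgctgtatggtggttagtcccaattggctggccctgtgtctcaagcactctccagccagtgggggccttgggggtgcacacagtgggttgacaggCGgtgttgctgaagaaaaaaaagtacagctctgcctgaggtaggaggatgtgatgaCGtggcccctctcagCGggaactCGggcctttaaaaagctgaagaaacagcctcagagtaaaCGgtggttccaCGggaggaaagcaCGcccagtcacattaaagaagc
Tox2: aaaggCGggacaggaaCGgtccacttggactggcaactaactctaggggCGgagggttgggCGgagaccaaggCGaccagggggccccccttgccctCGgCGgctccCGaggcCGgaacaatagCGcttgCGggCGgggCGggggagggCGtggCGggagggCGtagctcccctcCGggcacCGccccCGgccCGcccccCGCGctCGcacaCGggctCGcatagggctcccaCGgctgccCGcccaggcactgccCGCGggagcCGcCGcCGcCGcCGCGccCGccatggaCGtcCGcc

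The promoter of *Il4* held 2 CpG sites and that of *Tox2* held 38, and over all 32817 windows of the table the median was 7. *Il21* had 5, *Pou2af1* 8, *Ascl2* 23 and *Bcl6* 31. The members thus ranged from CpG-poor promoters (14.1% of windows had fewer sites than *Il4*) to CpG-rich ones (95% had fewer than *Tox2*). On both strands, the octamer ATGCAAAT had no match in the 6 windows and was in 1.74% of all windows, the E-box CAGCTG had none and was in 16.3%, and TTCNNNGAA, the spacing that STAT factors bind and BCL6 sites resemble, was found 1 time, in *Bcl6*, and was in 8.29%. These counts describe the windows only, and methylation at these promoters was not analysed here.

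**Figure D1:**
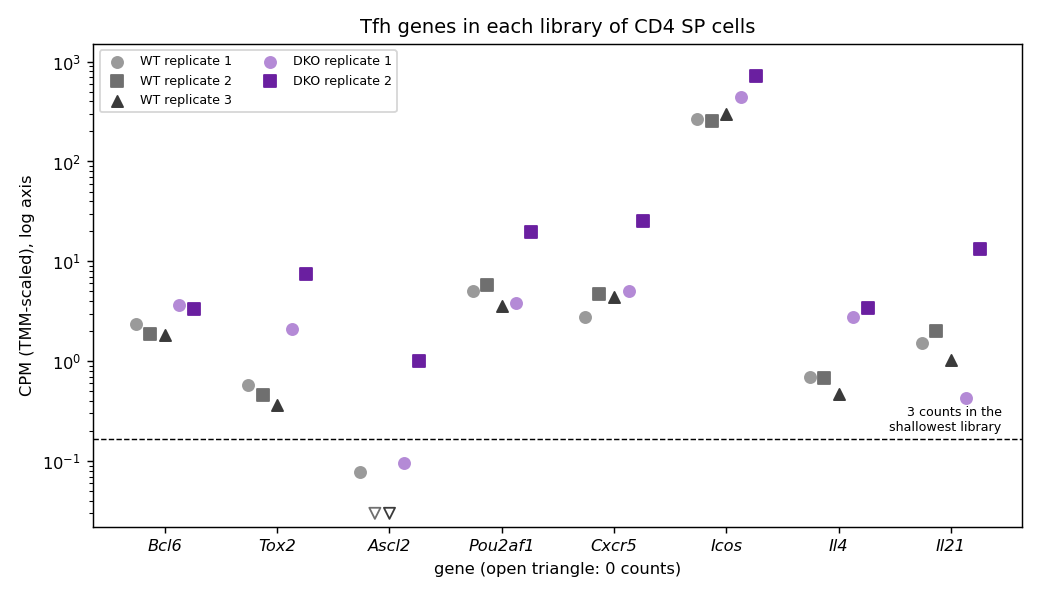
Level of each of the 8 Tfh genes in CPM (TMM-scaled, log axis) in the 3 WT libraries (gray) and the 2 *Tet2/3* DKO libraries (purple), with 1 point per library, open triangles at 0 counts and a dashed line at 3 counts in the smallest library. *Icos* is the most abundant member in all libraries, and the points of *Tet2/3* DKO replicate 2 lie above all others in 7 of the 8 genes, *Bcl6* being the exception.

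To compare levels between genes, CPM were divided by the length of the merged exons in kilobases. In WT, *Icos* had 79.1 ± 7.01 CPM per kilobase (SD, n = 3). *Pou2af1* followed with 1.88 ± 0.424, then *Cxcr5* with 1.18 ± 0.316, *Il4* with 0.501 ± 0.0999, *Bcl6* with 0.300 ± 0.0450, *Il21* with 0.289 ± 0.0953, *Tox2* with 0.138 ± 0.0318 and *Ascl2* with 0.0159 ± 0.0275. In this order *Pou2af1* and *Cxcr5* overlapped in range, as did *Bcl6* and *Il21*, and the other neighbours did not. In *Tet2/3* DKO cells *Icos* again stood first with 167 ± 56.4 CPM per kilobase (SD, n = 2), and *Pou2af1* (4.62 ± 4.42), *Cxcr5* (4.58 ± 4.31) and *Il4* (2.52 ± 0.373) followed with overlapping ranges. *Tox2* (1.40 ± 1.11), *Il21* (1.30 ± 1.73), *Bcl6* (0.517 ± 0.0340) and *Ascl2* (0.340 ± 0.397) came below *Il4*, and each of these overlapped with the next. *Icos* was thus the only member at a high level in either genotype, and the other 7 together were rare transcripts.

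Of the 7 tested members, 2 passed at an adjusted p under 0.01, both higher in *Tet2/3* DKO cells, where 3.92% of all 13525 tested genes were called, 2.42% as higher and 1.5% as lower. With DESeq2 3 of 8 members were past it (*Icos*, *Il4* and *Tox2*), where 6.91% of 14859 genes were called and 3.92% were called higher. In 5 of the 7 both *Tet2/3* DKO libraries lay above all WT libraries, which 19.6% of the tested genes did. *Tet2/3* DKO replicate 2 was the highest of the 5 libraries in 6 of the 7, against 24.4% of the tested genes, and *Tet2/3* DKO replicate 1 in 1 of the 7, against 26%. The median log2 fold change was 1.91 over the 7 members and 0.01 over all tested genes. The middle value of the 7 was that of *Cxcr5*. In the fit that left out *Tet2/3* DKO replicate 2, *Icos* held the middle place, at 0.67. When replicate 1 was left out instead, *Il4* held it, at 2.47. The size of the members' median thus depended on replicate 2. With 3 against 2 libraries the smallest p of an exact permutation test is 0.1, so that calls rest on edgeR's quasi-likelihood test across all genes, with Benjamini-Hochberg adjustment. Log2 fold changes are given ± the standard error of that test. Since the cells were measured in bulk, more cells that express a gene and more RNA per cell cannot be told apart.

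ICOS (ENSMUSG00000026009, chromosome 1 of GRCm38 from 60977927 to 61000320) is the receptor whose signal helps Tfh cells to form and persist. *Icos* had 263, 252 and 298 CPM in the WT libraries, 437 in *Tet2/3* DKO replicate 1 and 710 in replicate 2. Both *Tet2/3* DKO libraries were above every WT library, and replicate 2 was 1.63 times replicate 1. The log2 fold change was 1.08 ± 0.17 (edgeR adjusted p = 0.00532). Without *Tet2/3* DKO replicate 2 it was 0.67, and without replicate 1 it was 1.39, past the threshold in both. The call was lost without WT replicate 1, 2 or 3, with edgeR adjusted p of 0.0335, 0.0537 and 0.0334 and log2 fold changes of 1.06, 1.03 and 1.15, and with robust moderation (edgeR adjusted p = 0.0306). *Icos* is also high on regulatory T cells, and *Foxp3*, their defining factor, fell from 52.3 ± 7.09 to 21.1 ± 4.53 CPM (SD, n = 3 and 2), with a log2 fold change of -1.31 (edgeR adjusted p = 0.00191). Of the 6 regulatory T cell markers only *Foxp3* was past the threshold, where 3.92% of all tested genes were. *Tnfrsf4*, *Tnfrsf18* and *Lrrc32* had log2 fold changes of -1.18, -0.49 and -0.07, and *Gpr83* and *Ikzf2* of 0.48 and 0.37. With DESeq2 3 of the 6 passed, *Gpr83* as higher. The summed level of the 6 was 877 to 1035 CPM in WT, most of it *Tnfrsf4* and *Tnfrsf18*, and 626 to 748 in *Tet2/3* DKO libraries. The part of regulatory T cells in the level of *Icos* was not tested.

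*Cxcr5* (ENSMUSG00000047880, chromosome 9 from 44511787 to 44561877) encodes the receptor for the follicular chemokine CXCL13. Its counts were 71, 112 and 120 (WT) and 107 and 454 (*Tet2/3* DKO), or 2.75, 4.72 and 4.37 CPM against 5.10 and 25.4. *Tet2/3* DKO replicate 1 was barely above the highest WT library and replicate 2 was 4.98 times replicate 1. The log2 fold change of 1.91 ± 0.56 missed the threshold (edgeR adjusted p = 0.0724). Without *Tet2/3* DKO replicate 2 it was 0.36 (edgeR adjusted p = 0.490), and without replicate 1 it was 2.69 (adjusted p = 1.08e-07). *Cxcl13*, the gene of the ligand, had 2 counts in *Tet2/3* DKO replicate 2 and 0 in the other libraries.

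IL-4 is the cytokine of type 2 help. *Il4* (ENSMUSG00000000869, chromosome 11 from 53602982 to 53618669) was covered by 18, 16 and 13 reads (WT) and by 58 and 61 reads (*Tet2/3* DKO), or 0.696, 0.674 and 0.474 CPM against 2.77 and 3.41. The groups did not overlap, and *Il4* was the member on which the *Tet2/3* DKO libraries differed least among those past the threshold, replicate 2 being 1.23 times replicate 1. Its log2 fold change was 2.32 ± 0.35 (edgeR adjusted p = 0.00404). Without *Tet2/3* DKO replicate 2 it was 2.16, and without replicate 1 it was 2.47, past the threshold in both. The call was again lost without WT replicate 1, 2 or 3, with edgeR adjusted p of 0.0239, 0.0343 and 0.0316 and log2 fold changes of 2.42, 2.39 and 2.15, and with first-strand counts (edgeR adjusted p = 0.0273). It was also lost with the replicate number as a block (edgeR adjusted p = 0.0249). iNKT cells are a thymic source of IL-4, and of the iNKT and innate markers *Zbtb16* (PLZF) rose from 0.887 ± 0.345 to 13.1 ± 1.55 CPM (SD, n = 3 and 2) and *Klrb1c* from 1.86 ± 0.437 to 12.3 ± 7.73, while *Slamf1* fell from 77.9 ± 7.32 to 40.9 ± 1.24 (adjusted p of 8.57e-05, 0.00513 and 0.00152 from edgeR). Of the 6 markers 5 were tested, 2 rose and 1 fell, where 2.42% of all tested genes rose and 1.5% fell. The summed level of the 6 was 75.7 to 90.5 CPM in WT and 67.3 to 78.1 in *Tet2/3* DKO libraries. Most of this sum was *Slamf1*, and without it the sum was 3.71 to 5.65 CPM in WT, 25.5 in *Tet2/3* DKO replicate 1 and 38.04 in replicate 2. The part of such cells in the level of *Il4* was not tested.

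IL-21 drives germinal center B cells. *Il21* (ENSMUSG00000027718, chromosome 3 from 37222759 to 37232636) was covered by 39, 48 and 28 reads in the WT libraries, by 9 in *Tet2/3* DKO replicate 1 and by 237 in replicate 2. In CPM this was 1.51, 2.02 and 1.02 in WT against 0.429 and 13.3, so that replicate 1 was below and replicate 2 above all WT libraries. Replicate 2 was 30.9 times replicate 1, the widest gap among the 7 tested members. The log2 fold change of 2.11 ± 0.91 (edgeR adjusted p = 0.206) turned to -1.80 (adjusted p = 0.0859) without *Tet2/3* DKO replicate 2 and was 3.14 (adjusted p = 3.65e-07) without replicate 1. The antisense gene *Gm12534* overlaps 469 of 5259 exon bases of *Il21*, and reads there were left out of counts taken without strand. The neighbouring cytokine gene *Il2* had between 7 and 21 counts in all libraries and did not pass the threshold (log2 fold change 0.51, edgeR adjusted p = 0.687).

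*Bcl6* (ENSMUSG00000022508, chromosome 16 from 23965052 to 23988852) was covered by 61, 44 and 50 reads (WT) and by 76 and 59 reads (*Tet2/3* DKO), or 2.36, 1.85 and 1.82 CPM against 3.62 and 3.30. Both *Tet2/3* DKO libraries were above every WT library and close to each other. The log2 fold change of 0.79 ± 0.28 missed the threshold (edgeR adjusted p = 0.132, DESeq2 adjusted p = 0.226). Leaving out any 1 library gave values from 0.71 to 0.92, and *Bcl6* was the member of which replicate 2 was not the highest library. Among corepressors and relatives of BCL6, *Bcor* and *Ncor1* were not past the threshold and *Bcl6b* had no reads.

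*Tox2* (ENSMUSG00000074607, chromosome 2 from 163203125 to 163324170), a high mobility group box factor, was covered by 15, 11 and 10 reads (WT) and by 44 and 133 reads (*Tet2/3* DKO). This gave 0.580, 0.463 and 0.364 CPM in WT and 2.10 and 7.44 in the *Tet2/3* DKO libraries. The lower *Tet2/3* DKO value exceeded all WT values, and replicate 2 was 3.55 times replicate 1. The log2 fold change of 3.29 ± 0.64 lay just outside the threshold of 0.01 (edgeR adjusted p = 0.0129, DESeq2 adjusted p = 4.71e-06). It was 2.14 (edgeR adjusted p = 0.00664) without *Tet2/3* DKO replicate 2 and 3.98 (adjusted p = 5.29e-07) without replicate 1. Of its relatives, *Tox* had a log2 fold change of 0.28 (edgeR adjusted p = 0.1005) and *Tox4* one of -0.01 (adjusted p = 0.957), neither past the threshold, and *Tox3* had at most 3 counts.

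*Ascl2* (ENSMUSG00000009248, chromosome 7 from 142966829 to 142969264), a basic helix-loop-helix factor that precedes BCL6 in Tfh cells, was covered by 2, 0 and 0 reads (WT) and by 2 and 18 reads (*Tet2/3* DKO). It was the member that stayed under 10 counts, in 4 of 5 libraries, and it did not pass the filter on low counts. At this depth 3 counts correspond to 0.109 to 0.168 CPM, so that *Ascl2* was above this floor in *Tet2/3* DKO replicate 2 alone. Of the other members, *Il21* had fewer than 10 counts in 1 library and the rest had at least 10 in all.

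*Pou2af1* (ENSMUSG00000032053, chromosome 9 from 51213708 to 51240080) was covered by 130, 136 and 99 reads (WT) and by 80 and 353 reads (*Tet2/3* DKO), or 5.03, 5.73 and 3.61 CPM against 3.81 and 19.8. *Tet2/3* DKO replicate 1 lay within the WT range and replicate 2 above it. The log2 fold change of 1.26 ± 0.54 (edgeR adjusted p = 0.205) turned to -0.33 (adjusted p = 0.541) without *Tet2/3* DKO replicate 2 and was 2.05 (adjusted p = 3.19e-06) without replicate 1. The octamer factors it binds, *Pou2f1* and *Pou2f2*, had log2 fold changes of -0.04 and 0.37 and were not past the threshold. Since *Pou2af1*, *Cxcr5* and *Bcl6* are also B cell genes, B cell markers were counted. *Ms4a1*, *Pax5* and *Ebf1* did not exceed 7 counts in WT or in *Tet2/3* DKO replicate 1, and had 7, 8 and 14 in *Tet2/3* DKO replicate 2. There *Blk* had 295 counts, *Cd79b* 95, *Ighd* 56, *Igkc* 54 and *Cd22* 30, and *Fcer2a* had 0 in all libraries. Of the 14 B cell markers 8 were tested, and *Ighm*, which was at 545 to 1220 CPM in all libraries, rose, where 2.42% of all tested genes did. *Blk*, with 3, 8 and 9 counts in WT and 116 in *Tet2/3* DKO replicate 1, passed the filter only through the *Tet2/3* DKO libraries. Without *Ighm* the summed level was 18.0 to 28.1 CPM in WT, 22.7 in *Tet2/3* DKO replicate 1 and 40.3 in replicate 2. The part of B cells in these levels was not tested.

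**Figure D2:**
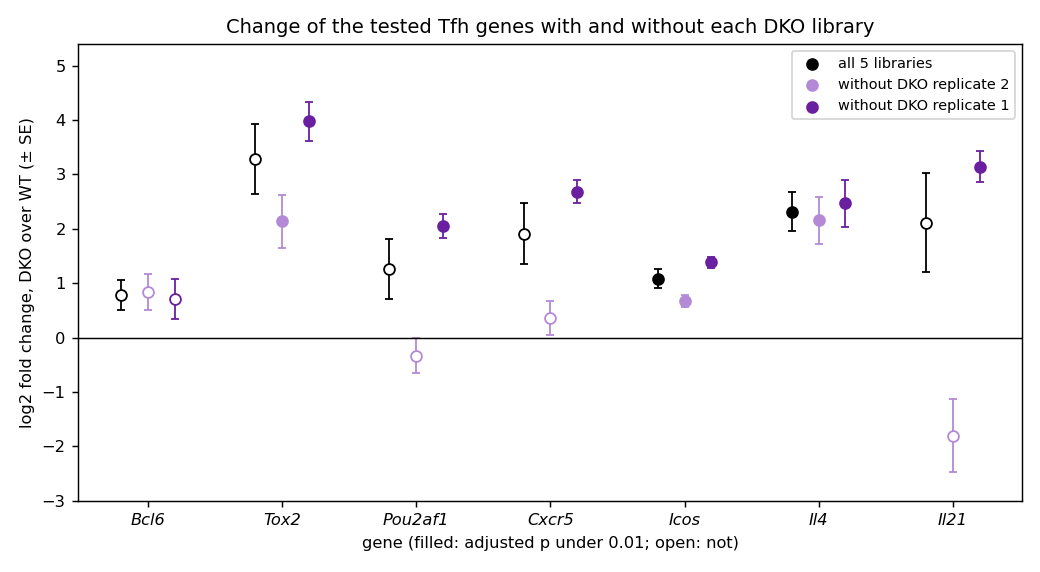
Log2 fold change of *Tet2/3* DKO over WT with its standard error for the 7 tested members, with all 5 libraries (black) and with either *Tet2/3* DKO library left out (purple); filled points passed at an adjusted p under 0.01 in edgeR's test. *Icos*, *Il4*, *Tox2*, *Cxcr5* and *Bcl6* stay above 0 in all fits, whereas *Il21* and *Pou2af1* lie below 0 without *Tet2/3* DKO replicate 2.

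*Icos*, *Il4* and *Tox2* were past the threshold with either *Tet2/3* DKO library left out, where 8% of 14357 genes were called without replicate 2 and 9.13% of 14358 without replicate 1. Without replicate 1 the count was 6 of the 7 members tested with all libraries, all but *Bcl6*. *Ascl2* passed the filter in that fit only through its reads in replicate 2 and is not counted. In these fits the lone *Tet2/3* DKO library is assumed to vary as the WT libraries do. With any WT library left out, none of the 7 tested members passed in edgeR's test, where 1.14%, 0.822% and 0.956% of genes did without WT replicates 1, 2 and 3. The count of members at an unadjusted p under 0.05 was 5, 4 and 4 of 7 without WT replicates 1, 2 and 3, where 17.2%, 18.5% and 19.2% of all tested genes were under it.

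In *Tet2/3* DKO replicate 2, *Cxcr5*, *Il21*, *Tox2* and *Pou2af1* were more than 2 times as high in CPM as in every other library, that is 4 of 7 tested members, where 2.55% of all tested genes were. For *Tet2/3* DKO replicate 1 the count was 0 of 7, against 1.31% of all tested genes. This measure was chosen after the values were seen and has no test. By this measure 4 of 8 tested B cell markers (*Cd22*, *Ighd*, *Igkc* and *Blk*) and 3 of 7 tested myeloid markers (*Lyz2*, *H2-Aa* and *H2-Ab1*) also stood out in replicate 2. *Cd79a*, *Cd79b* and *Cd24a* were lower in CPM in replicate 2 than in replicate 1, and *Adgre1* had 7 counts against 25. The summed level of the 10 myeloid and dendritic cell markers was 81.8 to 103 CPM in WT, 109 in *Tet2/3* DKO replicate 1 and 191 in replicate 2. *Itgax* and *Siglech* had 8 counts or fewer throughout. None of the 7 tested myeloid markers was past the threshold, where 3.92% of all tested genes were. Some markers of NK cells and γδ T cells were also higher in both *Tet2/3* DKO libraries. Of 6 NK cell markers *Nkg7* rose, where 2.42% of all tested genes did, and *Ncr1* and *Klrb1a* passed the filter only through the *Tet2/3* DKO libraries. The summed level was 27.5 to 38.7 CPM in WT, 301 in *Tet2/3* DKO replicate 1 and 533 in replicate 2. Most of this sum was *Nkg7*, at 26.7 to 37.5 CPM in WT, 295 in replicate 1 and 522 in replicate 2. *Tyrobp* was not past the threshold, and *Klra4* and *Klra8* had at most 4 counts. Of 6 γδ T cell markers *Tcrg-C1*, *Tcrg-C2* and *Tcrg-C4* rose, where 2.42% of all tested genes did, and *Il23r* passed the filter only through the *Tet2/3* DKO libraries. The summed level of the 6 was 28.7 to 30.5 CPM in WT, 236 in *Tet2/3* DKO replicate 1 and 382 in replicate 2. *Trdc*, the constant gene of the δ chain, was not past the threshold (log2 fold change 0.33, edgeR adjusted p = 0.377), and *Sox13* had 4 or 5 counts in *Tet2/3* DKO libraries and 25 to 28 in WT. The sort on TCRβ, CD4 and absence of CD8 was aimed at leaving out B cells, myeloid cells, NK cells and γδ T cells. How many such cells remained was not measured here. The part of such cells and of the large clonotypes in the levels of the members was not tested.

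Other genes of the Tfh program were taken from a list of 22 genes, all of which were tested. Of these, 5 rose, 3 fell and 14 did not pass the threshold, where 2.42% of all tested genes rose and 1.5% fell, and the median log2 fold change was 0.61 against 0.01 over all tested genes. The median lies between *Sh2d1a* and *Btla*. From the WT mean, *Sh2d1a* differed by 0.39 log2 CPM in *Tet2/3* DKO replicate 1 and 0.68 in replicate 2, and *Btla* by -0.01 and 1.16. The median thus rests in part on replicate 2. With DESeq2 11 of the 22 passed, 7 of them higher. *Slamf6*, a receptor of contacts between T and B cells, rose from 257 ± 19.3 to 565 ± 79.9 CPM (SD, n = 3 and 2), a log2 fold change of 1.14 ± 0.11 (edgeR adjusted p = 0.00033). *Tnfsf8*, the CD30 ligand, rose from 30.8 ± 0.610 to 99.0 ± 43.3 CPM (log2 fold change 1.68), *Izumo1r*, the folate receptor 4, from 296 ± 18.0 to 483 ± 16.9 (0.71), *Batf*, an AP-1 factor upstream of *Bcl6*, from 73.4 ± 2.14 to 127 ± 14.8 (0.79), and *Maf*, which drives *Il21* and *Il4*, from 2.45 ± 0.350 to 21.2 ± 17.2 (3.09). *Maf* had 9.01 CPM in *Tet2/3* DKO replicate 1 and 33.3 in replicate 2, both above the highest WT library at 2.82. Without any 1 of the WT libraries *Slamf6* was the 1 gene of the list that passed. With robust moderation *Maf* (edgeR adjusted p = 0.0781) and *Tnfsf8* (edgeR adjusted p = 0.0148) did not pass. Without *Tet2/3* DKO replicate 2 the log2 fold change of *Maf* was 1.87 and without replicate 1 it was 3.77, and all 8 called genes of the list passed in both fits.

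The 3 genes of this list that fell were factors and a receptor that precede the Tfh fate and are high in naive CD4 cells. *Tcf7* (TCF-1) fell from 1286 ± 101 to 869.97 ± 73.8 CPM, *Lef1* from 659 ± 12.3 to 434 ± 62.5 and *Il6ra*, the receptor of IL-6, from 293 ± 1.13 to 158 ± 29.6, with log2 fold changes of -0.56, -0.60 and -0.89 (adjusted p of 0.00741, 0.00611 and 0.00184 from edgeR). With the replicate number as a block, *Tcf7* and *Lef1* did not pass (edgeR adjusted p of 0.0187 and 0.0106).

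Several surface and secreted products of Tfh cells were highest in *Tet2/3* DKO replicate 2 and did not pass the threshold in edgeR's test with all libraries. These are named here after their values were seen. *Tigit* had 5.76, 7.50 and 6.34 CPM in WT, 7.25 in *Tet2/3* DKO replicate 1 and 122 in replicate 2 (log2 fold change 3.29, edgeR adjusted p = 0.0423). It was 0.14 without replicate 2 and 4.22 without replicate 1. *Angptl2* had 2.94, 2.32 and 1.46 CPM in WT and 6.77 and 117 in *Tet2/3* DKO (log2 fold change 4.77, edgeR adjusted p = 0.0167, DESeq2 adjusted p = 0.00287). *Angptl2* passed without replicate 2 (1.59, edgeR adjusted p = 0.00256) and without replicate 1 (5.71, edgeR adjusted p = 5.9e-13). *Sostdc1*, a secreted antagonist made by Tfh cells, was covered by 15, 13 and 0 reads (WT) and by 3 and 428 reads (*Tet2/3* DKO). *Pdcd1* (PD-1) had 77.9, 82.9 and 78.1 CPM in WT and 94.5 and 295 in *Tet2/3* DKO (log2 fold change 1.29, adjusted p = 0.0557), and its log2 fold change was 0.23 without replicate 2 and 1.89 without replicate 1. With *Cd200*, *Btla* and *Maf*, 7 of the 22 genes were more than 2 times as high in replicate 2 as in every other library, where 2.55% of all tested genes were, and none was in replicate 1.

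**Figure D3:**
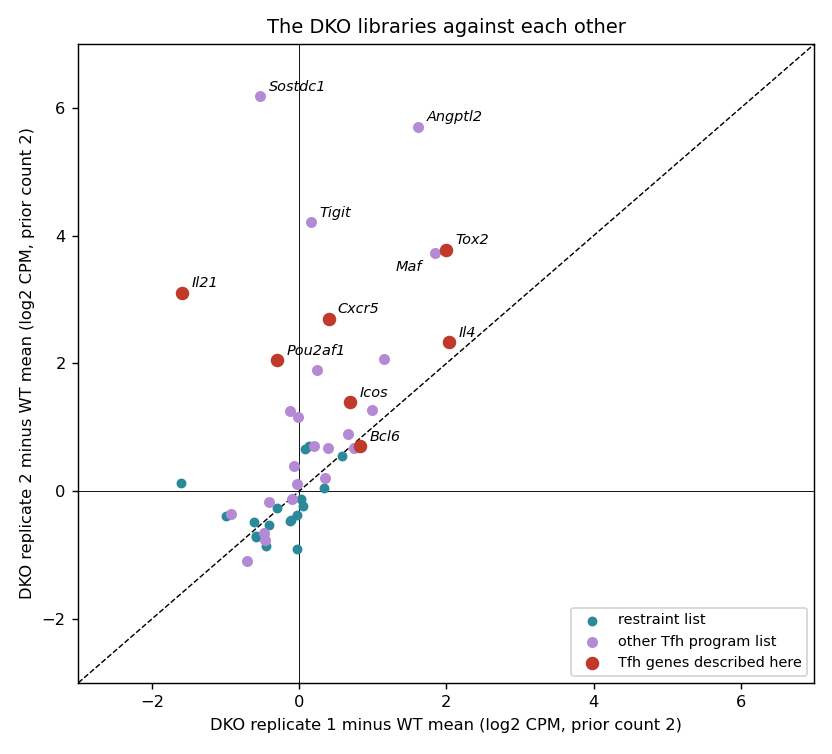
Difference in log2 CPM (prior count 2) from the WT mean in *Tet2/3* DKO replicate 1 (horizontal axis) and replicate 2 (vertical axis) for the tested members (red), the other Tfh program genes (light purple) and the restraint genes (teal), with a dashed line where the libraries are equal. *Bcl6*, *Il4* and *Icos* lie near the line, and *Il21*, *Cxcr5*, *Pou2af1*, *Tigit*, *Angptl2* and *Sostdc1* lie far above it.

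A list of 18 genes that restrain Tfh cells or keep T cells out of follicles had 1 gene that rose, 2 that fell and 15 that did not pass the threshold, where 2.42% of all tested genes rose and 1.5% fell, with a median log2 fold change of -0.30. *Ccr7*, the receptor that holds naive cells in the T cell zone, fell from 2200 ± 34.3 to 1403 ± 94.4 CPM (SD, n = 3 and 2), a log2 fold change of -0.65 ± 0.08 (edgeR adjusted p = 0.00153). *S1pr1*, the egress receptor, fell from 787 ± 69.8 to 504 ± 28.3 CPM (log2 fold change -0.64, edgeR adjusted p = 0.00394). *Gpr183* (EBI2), which Tfh cells turn down on entry to the follicle, rose from 99.3 ± 6.55 to 147 ± 2.58 CPM (log2 fold change 0.57, adjusted p = 0.00578). *Prdm1* (BLIMP-1), the antagonist of BCL6, was covered by 27, 43 and 48 reads (WT) and by 29 and 19 reads (*Tet2/3* DKO) and did not pass the threshold (log2 fold change -0.31 ± 0.40). Without any 1 of the WT libraries *Ccr7*, *S1pr1* and *Gpr183* did not pass in edgeR's test, and in DESeq2 with all libraries 7 genes of the list passed, 1 higher and 6 lower.

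**Figure D4:**
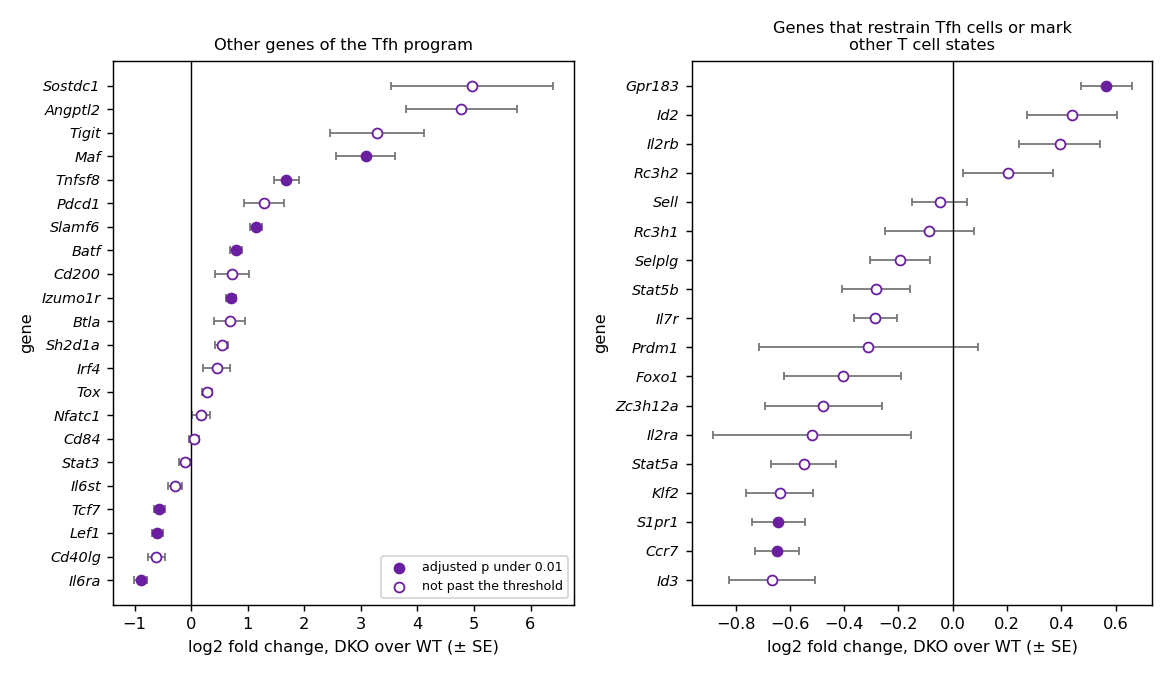
Log2 fold change of *Tet2/3* DKO over WT with its standard error for the 22 other genes of the Tfh program (left) and the 18 restraint genes (right), with filled points past the adjusted p-value threshold of 0.01 in edgeR's test. On the left 5 filled points lie above 0 and 3 below, and on the right 1 lies above and 2 below.

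Of 15 partner and family genes of the members, 12 were tested and 1 rose, where 2.42% of all tested genes rose. This was *Icosl*, the gene of the ICOS ligand, which went from 2.67 ± 0.671 to 7.96 ± 0.812 CPM (SD, n = 3 and 2), with a log2 fold change of 1.59 ± 0.26 (edgeR adjusted p = 0.00534). *Pou2f2* came next in size (log2 fold change 0.37, edgeR adjusted p = 0.357). The receptors *Il21r* and *Il4ra* had 520.4 ± 52.6 and 160.1 ± 23.6 CPM in WT, against 589 ± 24.4 and 194 ± 9.88 in *Tet2/3* DKO cells, and did not pass. *Icosl* did not pass without any 1 of the WT libraries or with first-strand counts (edgeR adjusted p = 0.0177).

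Of 9 type 2 genes and cytokine neighbours, 7 were tested, of which 1 rose and 1 fell, where 2.42% of all tested genes rose and 1.5% fell. *Ccr4*, a chemokine receptor of type 2 cells, rose from 9.38 ± 1.62 to 23.7 ± 5.04 CPM (SD, n = 3 and 2), with a log2 fold change of 1.33 (edgeR adjusted p = 0.00345). *Ccr8* fell from 215 ± 24.4 to 124 ± 1.95 CPM (log2 fold change -0.80, adjusted p = 0.00225). *Gata3*, the type 2 factor, had a log2 fold change of -0.52 ± 0.14 (edgeR adjusted p = 0.0565) and did not pass. Without *Tet2/3* DKO replicate 2 it passed, at -0.78 (edgeR adjusted p = 0.000606), and without replicate 1 it was at -0.30 (edgeR adjusted p = 0.142). *Il5* and *Il13*, which share a cluster with *Il4*, had at most 4 counts in WT and in *Tet2/3* DKO replicate 1, and 7 and 16 in replicate 2, so that neither passed the filter of edgeR's test, and DESeq2 gave *Il13* an adjusted p of 0.519 and *Il5* none. Without any 1 of the WT libraries, neither *Ccr4* nor *Ccr8* passed.

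For the members past the threshold, the tested genes with the nearest profile over the 5 libraries were found from the Euclidean distance of log2 CPM centered on each gene's mean. *Lgals3* (distance 0.123) and *Gem* (0.292) were nearest to *Il4*, and *Slc27a6* (0.151) and *Adap1* (0.174) to *Icos*. With 5 libraries this is a description of the values only.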

How the data were processed

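RNA was made into libraries with SMART-Seq v4 and Nextera XT, without molecular identifiers, and sequenced on an Illumina HiSeq. The authors trimmed reads with fastp 0.21.0 and aligned them with STAR 2.7.5a to mm10, and deposited raw counts per gene for each library. Unstranded counts were used, and 20.8% to 23.7% of reads were not assigned to genes. Symbols and exons came from GENCODE M21 (GRCm38), which named 55227 of 55487 gene identifiers. Genes were filtered with filterByExpr, scaled by TMM and tested with edgeR 4.0.16 in R 4.3.3 (quasi-likelihood test, Benjamini-Hochberg adjustment over 13525 genes, threshold 0.01). DESeq2 1.42.0 was among 15 alternatives. The script was tested on simulated data. The members and lists were chosen with earlier results of these data known. Named were all members, every listed gene past the threshold, or up to 3 of the largest changes where fewer passed, defining markers, and the 2 nearest profiles of each member past the threshold; other genes were named after their values were seen. Some listed genes are not reported here by name. Deposited TRB clonotype counts gave the share of the 10 largest clonotypes, and TRA clonotypes were not used. Intervals cover counting error only. Each library came from 1 mouse.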

Additional observations from a re-analysis of the deposited data

How the results depend on the processing

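The 530 genes past the threshold became 1027 with DESeq2 and 1173 at a threshold of 0.05, and 110 to 1311 with 1 library left out; the lone *Tet2/3* DKO library is then assumed to vary like the WT libraries. The 2 members became 1 with robust moderation (*Il4*), 1 with first-strand counts (*Icos*) and 0 to 7 with 1 library left out, the 7 being 6 without *Ascl2*, which passed the filter there only through *Tet2/3* DKO replicate 2. The 8 other Tfh genes became 6 with robust moderation and 1 to 15 with 1 library left out, the 1 being *Slamf6* without any WT library. The 3 restraint genes became 7 with DESeq2, 6 at a threshold of 0.05 and 0 to 7 with 1 library left out. The 1 partner gene became 0 with first-strand counts, 0 with the replicate block and 0 to 2 with 1 library left out, and the 2 type 2 genes became 0 to 3. Log2 fold changes turned to -1.80 (*Il21*), -0.33 (*Pou2af1*) and -1.33 (*Sostdc1*) without *Tet2/3* DKO replicate 2, and were 3.14, 2.05 and 6.02 without replicate 1.

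Same-numbered libraries share only a number: the groups have 2 numbers in common, the mice differ, and their deviations correlated at 0.0151 and 0.00446. With the number as a replicate block 358 genes passed, among them 2 members (*Icos* and *Tox2*, with *Il4* at an edgeR adjusted p of 0.0249), 6 other Tfh genes, 2 restraint genes, 0 partner genes and 2 type 2 genes. *Tox2* passed with DESeq2, no filter on low counts, legacy moderation, second-strand counts, the replicate block and a threshold of 0.05. Depth limits *Ascl2*, *Il5* and *Il13*, which were near or under 10 counts in most libraries.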
